A study of Saccharomyces cerevisiae with 8 samples.

Results

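TDH1, TDH2 and TDH3 encode the isoenzymes of glyceraldehyde phosphate dehydrogenase in the budding yeast Saccharomyces cerevisiae, and ENO1 and ENO2 encode its enolases. These 5 genes, all measured, are 5 of the 6256 genes on the array, each with 1 probe in 2 spots. They were chosen by name, with earlier results of these data known. Their levels were compared between 4 cultures of a924E1, a mutant sensitive to pressure, and 4 cultures of KA31a, the strain it came from. All cultures were grown for 48 h at 30 °C in rich medium with 2% glucose (YPD), and no pressure treatment is named in the labels. The labels do not give the allele behind the pressure sensitivity, nor any other marker of either strain. The design text speaks of independent biological samples, and the arrays are called mutants 1, 3, 5 and 7 and parents 2, 4, 6 and 8 after their titles.

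Both reactions belong to the trunk of glycolysis and run in either direction, so that the same enzymes also serve gluconeogenesis. Glyceraldehyde phosphate dehydrogenase oxidises and phosphorylates the triose phosphate with NAD, and enolase removes water from phosphoglycerate to form phosphoenolpyruvate. In growing yeast TDH3 and TDH2 supply most of the dehydrogenase, whereas TDH1 is known as the form of cells that enter stationary phase. ENO2 is the enolase induced by glucose, and ENO1 is the form whose expression depends little on the carbon source. TDH1 and TDH2 lie on chromosome X, TDH3 and ENO1 on chromosome VII and ENO2 on chromosome VIII.

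Array brightness differed widely. Median signal over local background ran from 5 to 112 intensity units in the mutant and from 15 to 182 units in the parent, and 602 to 4704 probes were above background on mutant arrays and 1534 to 5272 on parent arrays. Being above background meant that signal-to-noise reached 3 in both spots of a probe. Mutants 5 and 7 and parent 8 were scanned at a photomultiplier gain of 700 and the other arrays at 600. Strain also coincided with position, since each strain had a slide column to itself, and these cannot be told apart. Levels below are log2 intensities after background correction and quantile normalization of spots, which gives each spot the value that belongs to its rank on the array, averaged over the 2 spots of a probe. No spot of the 5 genes held a saturated pixel.

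TDH1 rose in the mutant while TDH3, ENO1 and ENO2 fell. TDH1 was 1.78-fold higher in the mutant than in the parent, and TDH3 was 1.68-fold, ENO2 1.68-fold and ENO1 1.41-fold lower. TDH2 read 1.34-fold lower and did not pass at an adjusted p of 0.0503. Thus 1 of the 5 genes was called higher and 3 were called lower, where 12.7% and 14.0% of all genes were called higher and lower (26.6% in either direction). The median difference of the 5 was -0.49 on the log2 scale, against 0.05 over all genes. Because the 5 were chosen with earlier results of these data known, these shares are descriptions.

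**Figure D1:**
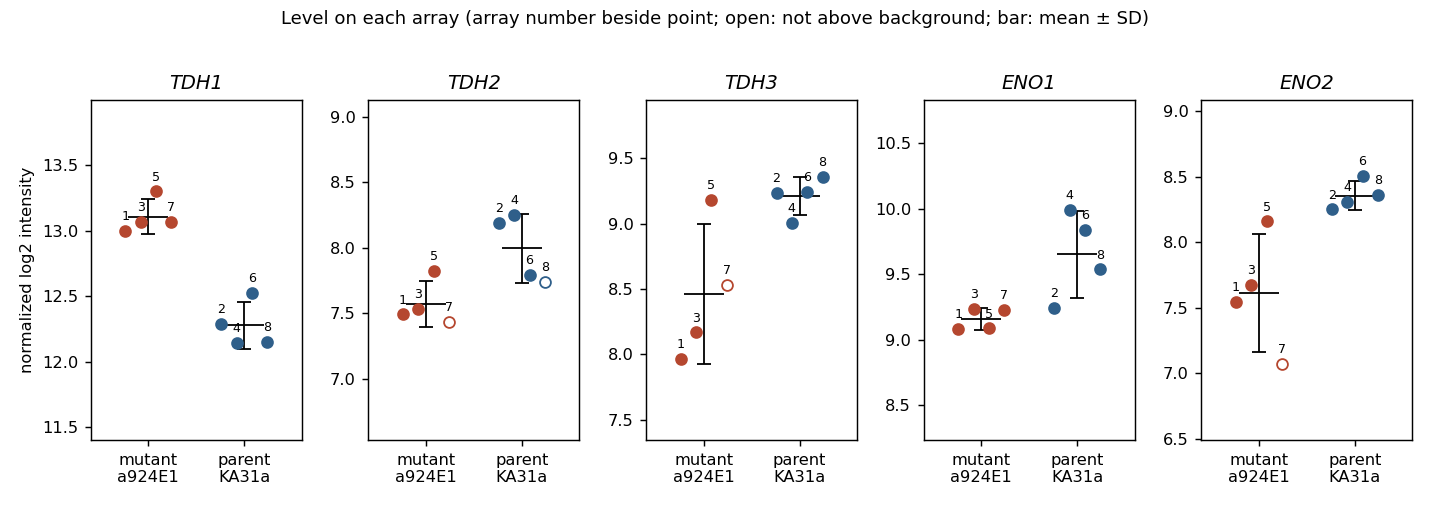
Normalized log2 intensity (vertical axes, each spanning the same range) of the 5 genes on the 4 mutant and 4 parent arrays. Each point is 1 array with its number, open points were not above background, and bars give mean ± SD (n = 4). The mutant points lie above all parent points for TDH1, below all parent points for ENO1 and ENO2, and overlap the parent points for TDH2 and TDH3.

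TDH1 had log2 levels of 13.00, 13.07, 13.30 and 13.07 on mutants 1, 3, 5 and 7, against 12.29, 12.14, 12.53 and 12.15 on parents 2, 4, 6 and 8. Every mutant array lay above every parent array, which was so, in either direction, for 29.9% of all genes. The means were 13.11 ± 0.13 in the mutant and 12.28 ± 0.18 in the parent (SD, n = 4 each). The difference was 0.83 ± 0.12 (SE), with a 95% interval of 0.57 to 1.09 and a limma adjusted p of 0.000464. TDH1 was above background on all 8 arrays and among their brightest probes, ranking 7, 6, 3 and 6 by signal in the mutant, against 20, 25, 14 and 27 in the parent. Mutants 3 and 7 had the same normalized level, although their signals over background were 19213.5 and 1352.5 units. Within gain 600 the difference was 0.72 (adjusted p = 0.0131), and within gain 700, with 2 mutant arrays and 1 parent array, it was 1.03 (adjusted p = 0.244). With gain as a block it was 0.83. Between the mutant and the parent array of the same slide row it was 0.71, 0.93, 0.77 and 0.92 in rows 1 to 4. The call ended when arrays were scaled to their 75th percentile (0.84, adjusted p = 0.473) or median (0.78, adjusted p = 0.652), settings under which all genes together gave 57 and 37 calls.

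TDH3 had log2 levels of 7.96, 8.17, 9.18 and 8.53 on mutants 1, 3, 5 and 7, against 9.23, 9.01, 9.24 and 9.36 on parents 2, 4, 6 and 8. The strains overlapped through mutant 5, which read above parent 4, and mutant 7 was not above background. The means were 8.46 ± 0.53 in the mutant and 9.21 ± 0.15 in the parent (SD, n = 4 each), a difference of -0.75 ± 0.22 (SE, 95% interval -1.23 to -0.27, limma adjusted p = 0.0264). The 5 arrays of gain 600 alone gave a difference of -1.09 (adjusted p = 0.00336) and the 3 of gain 700 alone -0.50 (adjusted p = 0.75). A block for gain gave -0.88. Without the dim mutants 5 and 7 the difference was -1.22 (adjusted p = 0.000952), a larger fall than with all 8 arrays. That setting removed mutant 5, the highest mutant level. It kept parent 8, whose median signal of 15 units was close to the 16 of mutant 5. By slide row the difference was -1.27, -0.84, -0.06 and -0.83. Leaving out any of mutants 1, 3 and 7 or parents 2, 6 and 8 ended the call, with adjusted p between 0.0517 and 0.0778.

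TDH2 had log2 levels of 7.49, 7.54, 7.82 and 7.43 on mutants 1, 3, 5 and 7, against 8.19, 8.25, 7.79 and 7.74 on parents 2, 4, 6 and 8. Mutant 5 read above parents 6 and 8, and the probe was not above background on mutant 7 and parent 8. The means were 7.57 ± 0.17 in the mutant and 7.99 ± 0.27 in the parent (SD, n = 4 each), a difference of -0.42 ± 0.15 (SE, 95% interval -0.74 to -0.11). This difference passed without mutant 5, parent 6 or parent 8 (adjusted p = 0.0261, 0.0475 and 0.0343). The 5 arrays of gain 600 alone gave -0.57 (adjusted p = 0.0445) and the 3 of gain 700 alone -0.12 (adjusted p = 0.971). A block for gain gave -0.40. The duplicate spots of TDH2 on parent 6 read 277 and 82 units over background, the widest disagreement of any member on any array.

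Of the paralogs, TDH1 was thus called higher and TDH3 lower. Whether they changed unequally was tested within arrays by the log2 ratio of the probes. This ratio does not test whether they moved in opposite directions, since a change of either gene alone would shift it. The size of such a ratio depends on the probes as well as the transcripts, so only its difference between strains is read, and the levels of the paralogs are not ranked. The TDH1 signal over local background, before any normalization, was 49.9, 35.0, 34.1 and 38.6 times that of TDH3 on mutants 1, 3, 5 and 7, against 9.50, 9.28, 11.3 and 8.74 times on parents 2, 4, 6 and 8. The mutant and parent values did not overlap. TDH3 was not above background on mutant 7, with a signal of 35 units, so the ratio of 38.6 there is uncertain. On the normalized scale the mean log2 ratio was 4.65 ± 0.41 in the mutant and 3.07 ± 0.21 in the parent (SD, n = 4 each), a difference of 1.58 ± 0.23 (SE). An exact two-sided permutation test gave p = 0.0286, the smallest that 4 arrays against 4 allow, and 0.0571 after adjustment over the 4 ratios tested, so that it did not pass the adjusted threshold of 0.05. Without mutant 7 the difference was 1.62. Gain 600 alone gave 1.81, gain 700 alone 1.54 and a block for gain 1.71.

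The ratio of TDH1 to TDH2 also stood apart. It was 83.7, 66.9, 134 and 123 on mutants 1, 3, 5 and 7 by unnormalized signal, against 21.2, 16.6, 35.1 and 36.7 on parents 2, 4, 6 and 8. TDH2 was not above background on mutant 7 (11 units) and parent 8 (45.5 units), so the ratios of 123 and 36.7 are uncertain. The normalized log2 ratio was higher by 1.26 ± 0.19 in the mutant (SE, n = 4 each, exact permutation p = 0.0286, adjusted p = 0.0571). Without mutant 7 it was 1.22 and without parent 8 it was 1.3. Gain 600 alone gave 1.28, gain 700 alone 1.15 and a block for gain 1.23. The ratio of TDH2 to TDH3 was 0.596, 0.522, 0.254 and 0.314 by signal on the mutant arrays, against 0.448, 0.559, 0.322 and 0.238 on the parent arrays, and these overlapped. Its normalized log2 difference was 0.32 ± 0.28 (SE, n = 4 each, exact permutation p = 0.286, adjusted p = 0.381), 0.53 within gain 600 and 0.39 within gain 700. TDH2 and TDH3 are close copies, and the probe sequences were not used here. How far each TDH probe, that of TDH1 included, reads the other TDH transcripts was not tested.

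**Figure D2:**
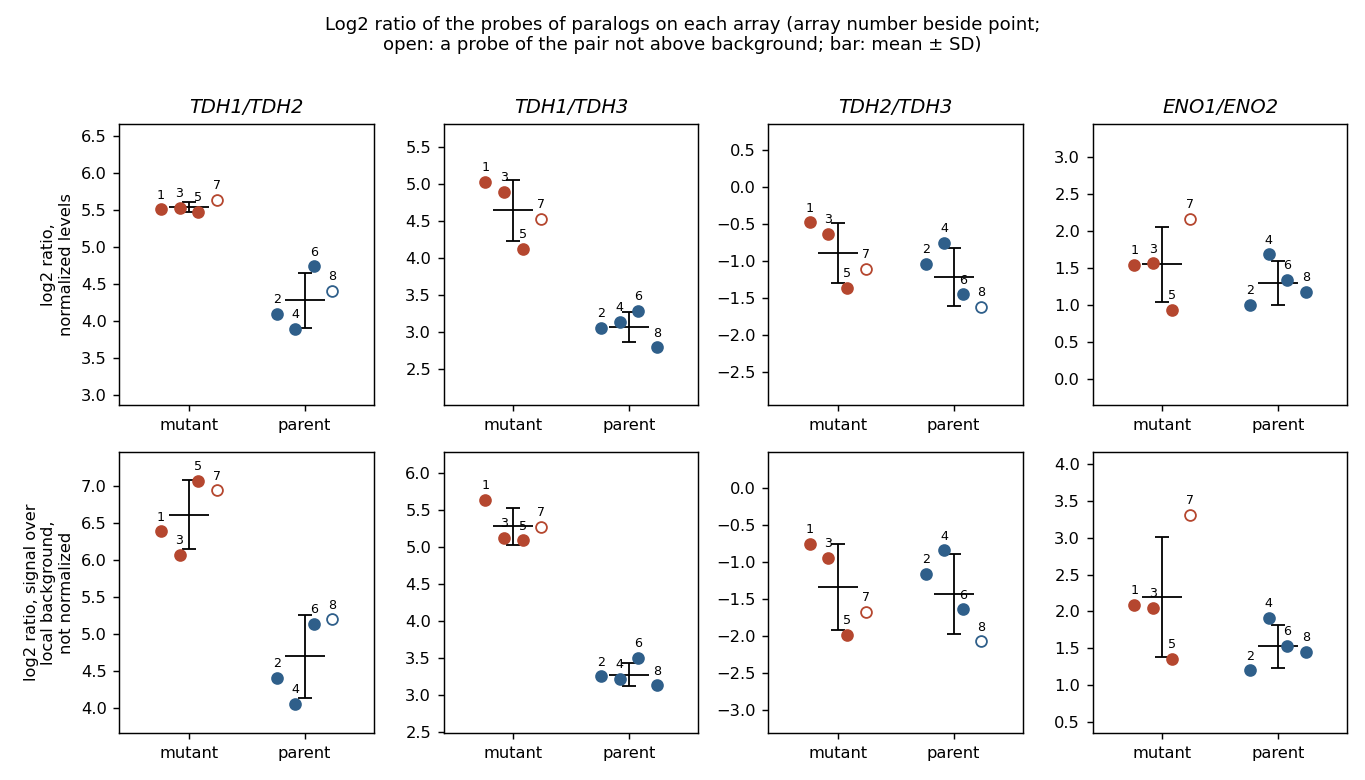
Log2 ratio of paralogous probes on each array, from normalized levels (upper row) and from signal over local background without normalization (lower row), for 4 mutant and 4 parent arrays. Points carry array numbers, open points have a probe that was not above background, and bars give mean ± SD (n = 4). In both rows the mutant and parent arrays are separate for TDH1/TDH2 and TDH1/TDH3 and overlap for TDH2/TDH3 and ENO1/ENO2.

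Both enolase genes were lower in the mutant. ENO2 had log2 levels of 7.55, 7.67, 8.16 and 7.07 on mutants 1, 3, 5 and 7, against 8.25, 8.31, 8.51 and 8.36 on parents 2, 4, 6 and 8. All mutant arrays lay below all parent arrays, and the probe was not above background on mutant 7. The means were 7.61 ± 0.45 in the mutant and 8.36 ± 0.11 in the parent (SD, n = 4 each), a difference of -0.74 ± 0.19 (SE, 95% interval -1.16 to -0.33, limma adjusted p = 0.0130). The arrays of gain 600 alone gave -0.74 (adjusted p = 0.00663), those of gain 700 alone -0.75 (adjusted p = 0.592) and a block for gain -0.75. By slide row it was -0.70, -0.63, -0.35 and -1.3. The call held on leaving out each of the 8 arrays in turn, with differences from -0.93 to -0.56.

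ENO1 had log2 levels of 9.08, 9.23, 9.09 and 9.23 on mutants 1, 3, 5 and 7, against 9.24, 9.99, 9.84 and 9.54 on parents 2, 4, 6 and 8. The strains did not overlap, but parent 2 at 9.24 and mutant 3 at 9.23 nearly met, and the duplicate spots of parent 2 were 965 and 2023 units over background. The means were 9.16 ± 0.08 in the mutant and 9.65 ± 0.33 in the parent (SD, n = 4 each), a difference of -0.49 ± 0.15 (SE, 95% interval -0.83 to -0.16, limma adjusted p = 0.0327). The probe was above background on all 8 arrays. The call ended on leaving out any mutant array or any of parents 4, 6 and 8 (adjusted p from 0.0503 to 0.105), and with the first spot of each probe alone (-0.32, adjusted p = 0.418). It also ended within gain 600 (-0.53, adjusted p = 0.147), within gain 700 (-0.38, adjusted p = 0.808) and with gain as a block (-0.48, adjusted p = 0.0581).

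Whether the enolase genes changed unequally was tested in the same way. The signal of ENO1 was 4.24, 4.15, 2.56 and 9.92 times that of ENO2 on mutants 1, 3, 5 and 7, against 2.30, 3.76, 2.91 and 2.73 times on parents 2, 4, 6 and 8. The highest of these, on mutant 7, rests on an ENO2 signal of only 6.5 units. The normalized log2 ratio was 1.54 ± 0.50 in the mutant and 1.29 ± 0.29 in the parent (SD, n = 4 each), a difference of 0.25 ± 0.29 (SE, exact permutation p = 0.457, adjusted p = 0.457). An unequal change was not detectable with this spread. How far each enolase probe reads the other enolase transcript was not tested, since the probe sequences were not used here.

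Around these genes, most measured enzymes of glycolysis were lower in the mutant. Of 18 other genes of the path from hexose to ethanol, 10 fell, 3 rose and 5 did not pass, so that 55.6% were called lower and 16.7% higher, with a median difference of -0.45. Of all genes 14.0% were called lower and 12.7% higher, with a median difference of 0.05. The share called higher in the path was thus near that of all genes. This list too was chosen with earlier results of these data known, so its shares are descriptions. FBA1, the aldolase that supplies triose phosphate, was 3.20-fold lower (adjusted p = 1.28e-06), and CDC19, the pyruvate kinase that uses the product of enolase, was 2.74-fold lower (adjusted p = 0.000474). TPI1, triose phosphate isomerase, fell by 0.99 on the log2 scale, and PGK1 and GPM1, the kinase and mutase between the dehydrogenase and enolase, fell by 0.76 and 0.42. The phosphofructokinase subunits PFK1 and PFK2 fell by 0.91 and 0.70, the isomerase PGI1 by 0.70 and the main pyruvate decarboxylase PDC1 by 0.48. PFK2 was above background on only 2 mutant arrays, so the size of its fall is uncertain. PDC6, a minor decarboxylase, was at least 1.84-fold lower, a bound because none of the mutant arrays had it above background.

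The 3 genes that rose were HXK1, GLK1 and GPM2. HXK1, a hexokinase, rose by 0.89 (adjusted p = 0.0117), GLK1, glucokinase, by 1.17 (adjusted p = 0.0271), and GPM2, a homologue of the mutase GPM1, by 0.95 (adjusted p = 0.00105). The size of the GLK1 rise is uncertain, because its duplicate spots on parent 2 read 6534 and 763 units over background. Its level was 9.87 there, against 11.17, 11.78 and 11.83 on parents 4, 6 and 8. HXK2, the hexokinase of growth on glucose, read 0.01 and did not pass. PYK2 at 0.36, PDC5 at 0.26, ADH1 at -0.27 and GPM3 at 0.06 did not pass either. GPM3 was above background on 0 mutant arrays and 1 parent array, so its difference is uncertain. With arrays scaled to their 75th percentile or median 0 of these 18 genes passed in limma (8 and 3 at an unadjusted p under 0.05). With the second spot of each probe alone 3 passed, 0 higher and 3 lower (10 unadjusted).

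**Figure D3:**
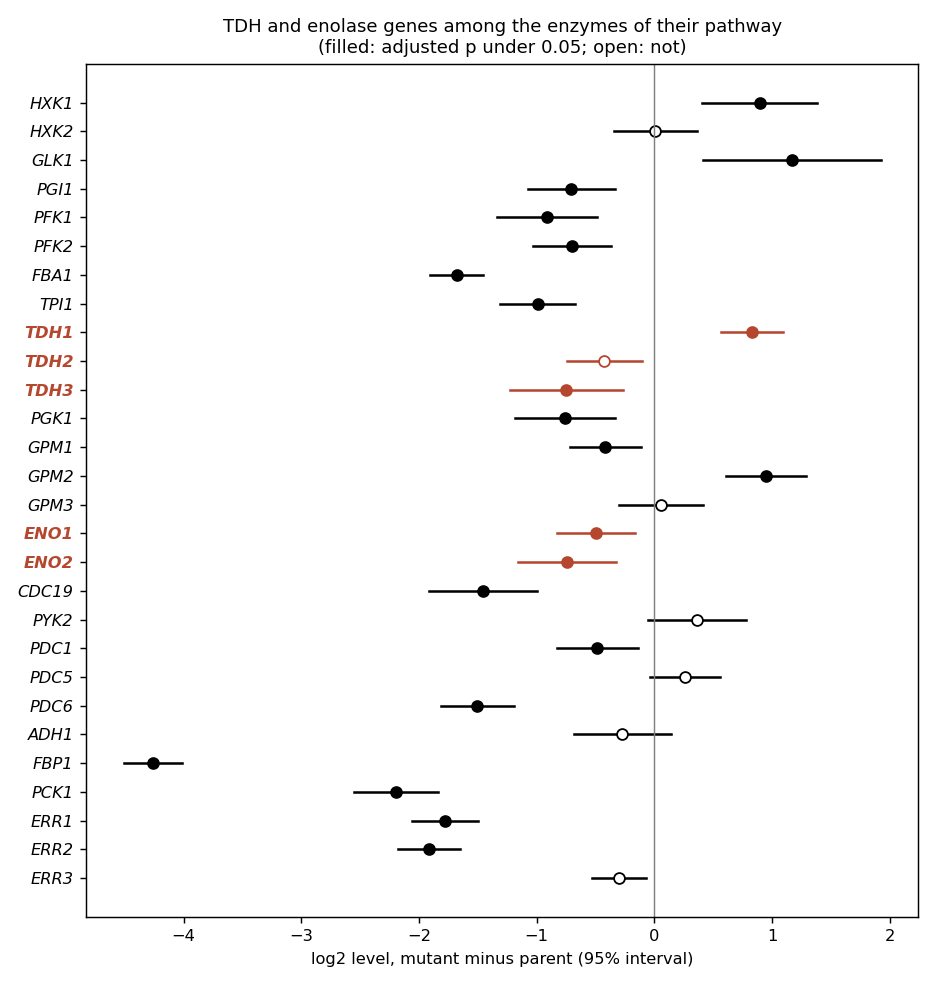
Difference in log2 level, mutant minus parent, with its 95% interval from limma, for the 5 TDH and enolase genes (red), the other 18 enzymes of glycolysis and fermentation, 2 gluconeogenic enzymes and 3 enolase-related genes. Filled points passed at an adjusted p under 0.05. TDH1 at 0.83 lies right of 0 between TPI1 at -0.99 and TDH2 at -0.42, which did not pass.

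Both gluconeogenic genes that bypass irreversible steps of the path fell. FBP1, the bisphosphatase opposite phosphofructokinase, differed by -4.26 ± 0.11 (SE, n = 4 per strain, adjusted p = 9.43e-10) and was above background on 2 mutant and 4 parent arrays, so the mutant level is uncertain. PCK1, which makes phosphoenolpyruvate, was above background on all arrays and differed by -2.20 ± 0.16 (adjusted p = 5.24e-06). Among 7 genes of transcription factors for glycolytic, glucose-repressed and stress genes, 2 fell, 0 rose and 5 did not pass, a share of 28.6% called that is near the 26.6% of all genes. MSN2 and MSN4, the activators of the general stress response, fell by 0.63 and 0.43 (adjusted p = 0.00563 and 0.0385), each above background on 2 mutant arrays. GCR1 and GCR2, the activators of glycolytic genes, read 0.14 and -0.14 and did not pass, and neither did RAP1 at -0.24, TYE7 at 0.00 and MIG1 at -0.18. TYE7 was above background on 1 mutant and 1 parent array and MIG1 on 0 mutant and 2 parent arrays, so their differences are uncertain.

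The enolase-related genes ERR1 and ERR2, which lie near chromosome ends and resemble enolase in sequence, fell. ERR1 had log2 levels of 6.58, 6.61, 6.63 and 6.72 on mutants 1, 3, 5 and 7, against 8.66, 8.59, 8.22 and 8.18 on parents 2, 4, 6 and 8. It was 3.43-fold lower (-1.78 ± 0.13, SE, n = 4 per strain, adjusted p = 4.33e-06) and ERR2 was 3.77-fold lower (-1.91 ± 0.12, adjusted p = 1.78e-06). Both were above background on mutants 1 and 3 and on all 4 parent arrays, with 51.5 and 75 units over background for ERR1 on those mutant arrays, against 897.5 and 955 units on parents 2 and 4. ERR3 read 0.30 lower on the log2 scale without passing (difference -0.30, adjusted p = 0.0574) and was above background on 0 mutant and 2 parent arrays. ERR1, ERR2 and ERR3 are close copies, so their probes may read a shared signal, and whether their change differed from that of the enolase genes was not tested.

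The genes most like each member over the 8 arrays were looked up among 1532 genes that were above background throughout at least 1 strain. The arrays fall into 2 strains, so these correlations carry the difference between strains and are descriptions. TDH1 was followed most closely by PMC1 (Pearson's r = 0.987), a vacuolar calcium pump, NCA2 (0.982) and the mitochondrial oxodicarboxylate carrier gene ODC2 (0.981), and 99 genes had an r over 0.9. For TDH3 the nearest were the glycolytic PGI1 (0.967), CUP2 (0.940) and the cytosolic malate dehydrogenase gene MDH2 (0.939), and 18 genes were over 0.9. ENO1 was nearest to ASC1 (0.954), RPL1B (0.951) and ATP3 (0.945), which encode ribosomal proteins and a subunit of ATP synthase, and ENO2 to POM34 (0.978), FLC2 (0.972) and ERV41 (0.971). TDH2 was nearest to BUD32 (0.95), EAF3 (0.943) and MMF1 (0.934), and only 4 genes were over 0.9.

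**Figure D4:**
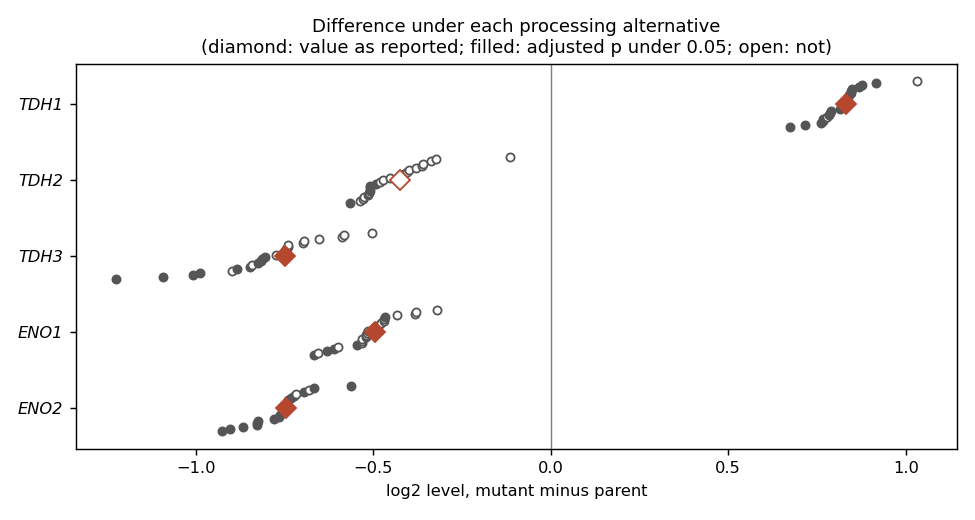
Difference in log2 level, mutant minus parent, of the 5 genes under each processing alternative (circles) and as reported (diamonds), filled where the adjusted p was under 0.05. All values of TDH1 lie right of 0, between 0.68 and 1.03, and all values of the other 4 genes lie left of 0.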

How the data were processed

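Per the file headers, the 8 one-colour Cy5 arrays were scanned at 635 nm and read with GenePix Pro, with local background and no normalization. The deposited scanner tables hold linear spot intensity, a score of signal over noise and, as a percent, the saturated pixels of each spot. The authors' deposited value table holds probe intensity that matched quantile-normalized spot medians after about 32.3 units were taken off, with 0 as the lowest value. It is linear and not centred, with a column median of 75.2, 75.1, 78.4 and 79.4 in mutants 1, 3, 5 and 7, against 76.6, 76.1, 77.0 and 75.5 in parents 2, 4, 6 and 8, and how the constant was chosen is unknown. No genome build of the array was used here.

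Spot medians were corrected with normexp (offset 50) in limma 3.58.1 (R 4.3.3), log2-transformed, quantile-normalized and averaged over 2 spots. The offset understates changes of dim genes. The strains were tested against each other over all 6256 genes (lmFit and eBayes in limma), two-sided, with Benjamini-Hochberg adjustment and calls at 0.05. Paralogs were compared by exact permutation of array log2 ratios. A bound ("at least") sets the parent mean against each mutant array's detection floor (its dimmest probe above background) or the gene's own level, whichever is higher. Chromosomes and names absent from the files came from a RefSeq table of assembly R64 (5756 of 6256 systematic names matched). Named genes were the 5 members, the members of 4 fixed lists and the 3 genes of highest Pearson correlation with each member. The members and lists were chosen with earlier results of these data known. The limma and permutation steps were tested on simulated data. There, true log2 differences of 0.5, 1, 2 and 3 in genes brighter than the median gave median estimates of 0.34, 0.67, 1.39 and 2.11. Sizes thus came out too small in the simulation. Settings varied were scaling, background correction, spot summary, dim-probe filter, gain, slide row, array weights, close array pairs and left-out arrays. Chosen after seeing the data were gain 700 alone, leaving out mutants 5 and 7, single spots and unnormalized ratios.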

Additional observations from a re-analysis of the deposited data

How the results depend on the processing

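The difference of each of the 5 genes kept its direction under every alternative run, 24 for each gene except TDH2, which had 23 because the filter on dim probes removed it. TDH1 stayed past the threshold in 21, ENO2 in 20, TDH3 in 13 and ENO1 in 8, and TDH2 passed in 6 of 23. With 75th percentile and median scaling the calls of all 4 called genes ended, at 0.84 and 0.78 for TDH1, -0.84 and -0.90 for TDH3, -0.60 and -0.65 for ENO1, and -0.68 and -0.74 for ENO2. All genes then gave 57 and 37 calls, 0 of them higher under either scaling, the 18 glycolysis genes 0 and 0, and the median of all genes was 0.21 and 0.15. With gain 700 alone the calls ended too, at 1.03 for TDH1, -0.50 for TDH3, -0.38 for ENO1 and -0.75 for ENO2, with 45 calls over all genes, 1 higher and 44 lower, and 0 of 18 in glycolysis (627 and 9 at an unadjusted p under 0.05 by limma). Fewer samples enter that fit. Averaging the closest pairs of arrays (mutants 1 and 3, parents 6 and 8), if these were not separate samples, ended the calls of TDH3 (-0.59), ENO1 (-0.48) and ENO2 (-0.72). ENO1 also lost its call with a smaller offset of 16 (-0.53), gain as a block (-0.48), gain 600 alone (-0.53), without mutants 5 and 7 (-0.52) and with the first spot alone (-0.32), where TDH3 lost it as well (-0.69). TDH2 passed in the authors' deposited table (-0.51), within gain 600 (-0.57) and with array weights (-0.51). The cause of these changes was not tested. Leaving out 1 array at a time gave -0.99 to -0.58 for TDH3, -0.63 to -0.38 for ENO1, -0.51 to -0.34 for TDH2, 0.77 to 0.92 for TDH1 and -0.93 to -0.56 for ENO2. Calls over all genes were 738 with the filter on dim probes, 3034 with array weights, and 1053 and 870 with the first and the second spot alone, against 1667. With the second spot 3 of 18 glycolysis genes passed, against 13. Of these 1667 calls 794 were higher, against 310 of 738 with the filter and 1653 of 3034 with weights.

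Under 23 alternatives the ratio of TDH1 to TDH3 was higher in the mutant by 1.45 to 2.01 on the log2 scale. That of TDH1 to TDH2 was higher by 1.13 to 1.92. That of TDH2 to TDH3 was higher by 0.09 to 0.69 and that of ENO1 to ENO2 by 0.05 to 0.67. None passed the adjusted threshold, which says little, because the design largely fixed this. The smallest possible permutation p was 0.1 with the lower gain alone or averaged pairs, and 0.0667 without mutants 5 and 7. The higher gain alone could not pass either. With all arrays both TDH1 ratios had the smallest possible p of 0.0286, adjusted to 0.0571. They could pass only if a further ratio also reached that p. The strains share no replicate number, so no fit used one. Slide row, which pairs 1 array of each strain, was used as a block and changed the call of none of the 5 genes, with an adjusted p of 0.00064 for TDH1, 0.0146 for TDH3, 0.0226 for ENO1, 0.00749 for ENO2 and 0.0568 for TDH2. Within rows the exact permutation p of each TDH ratio, that of TDH2 to TDH3 included, was 0.125 (adjusted p = 0.167). This is the smallest that 4 rows allow. For ENO1 to ENO2 it was 0.5. TDH2, TDH3 and ENO2 on mutant 7 and TDH2 on parent 8 were not above background, which limits those values.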

Other observations

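The genes next to the 5 members on their chromosomes, by the order in assembly R64, were looked up after the data had been seen. Of 10 such neighbours, 9 did not pass and 1 did, where 26.6% of all genes were called. COQ6, a coenzyme Q synthesis gene beside ENO1, was higher in the mutant by 0.60 on the log2 scale (limma adjusted p = 0.0102). Beside TDH1, IRC8 read 0.08 and YJL052C-A read 0.13, beside TDH3, HIP1 read 0.35 and PDX1 read -0.10, and none of these passed. IRC8 was above background on 1 mutant and 2 parent arrays and YJL052C-A on 0 mutant and 0 parent arrays. Beside ENO2, YHR173C was above background on 0 mutant and 0 parent arrays and CTR2 on 0 mutant arrays and 1 parent array. The differences of such dim neighbours are uncertain.

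Each of the enolase-related genes has a neighbour of the HSP31-like chaperone family. These neighbours too were looked up after the data had been seen. HSP33 beside ERR1 differed by -0.68 (adjusted p = 0.000457), HSP32 beside ERR2 by -0.75 (adjusted p = 0.00351) and SNO4 beside ERR3 by -0.91 (adjusted p = 0.00187), where 14.0% of all genes were called lower. HSP33 was above background on 2 mutant and 3 parent arrays, and HSP32 and SNO4 each on 3 mutant and 4 parent arrays. HSP31 itself, at another site, differed by -0.27 and did not pass (adjusted p = 0.131). On the other side of the ERR genes the PAU genes PAU21, PAU22 and PAU19 read -0.27, -0.41 and -0.12 and did not pass. The copies of each family are close in sequence, so the probes may share signal.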
